A study of Mus musculus with 6 samples.

Results

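The mitochondrially encoded genes are the genes carried by the small circular genome inside mitochondria, and they were chosen by gene name, as all genes of the count tables whose name starts with mt-. There were 13 of them among 34745 genes, each encoding a protein, and all 13 were among the 15400 genes tested. The annotation of the mouse build GRCm38 (GENCODE M21) also lists 2 ribosomal RNAs and 22 transfer RNAs on this genome, but no row of the tables carries an mt- name for them. The messenger RNA class therefore made up the whole of the mitochondrial counts, and ribosomal and transfer RNAs were not analysed here.

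The values came from RNA-seq of IngWAT (inguinal white adipose tissue, a fat depot under the skin) of 3 WT mice and 3 SAKI mice, 1 library per mouse. SAKI mice carry an LSL-Slc35d3 transgene whose stop sequence is removed by Cre from the adiponectin promoter, which is active in adipocytes. The WT mice are labelled wild type, and the study describes the controls of its SAKI mice as lacking Cre. All were males on a C57BL/6 background that were given normal chow (10 kcal% fat) for 10 weeks, from the age of 6 weeks to 16 weeks, and the labels give PBS perfusion for each. Libraries held 15354161 to 18787036 counts and were made from poly(A)-captured RNA. Slc35d3, the gene carried by the transgene, was at 73.3, 82.1 and 74.4 CPM (counts scaled to a common library size, with TMM factors) in WT mice 1 to 3 and at 745, 793 and 770 CPM in SAKI mice 1 to 3, so each library matched its label.

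The mitochondrial genome encodes core subunits of 4 enzyme complexes of oxidative phosphorylation. The mt-Nd genes encode subunits of complex I (NADH dehydrogenase), mt-Cytb encodes cytochrome b of complex III, the mt-Co genes encode the catalytic core of complex IV (cytochrome c oxidase), and mt-Atp6 and mt-Atp8 encode membrane subunits of complex V (ATP synthase). Complex II and most other subunits come from nuclear genes. Both strands are transcribed as long RNAs, which are cut mainly at the transfer RNAs between the genes, and most of the resulting messenger RNAs receive a short poly(A) tail. In brown and beige adipocytes the respiratory chain also feeds heat production through Ucp1.

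Of the 13 genes, 12 lie on one strand and mt-Nd6 on the other. Neighbours share bases in 4 places: mt-Atp8 and mt-Atp6 share 43 bases, mt-Nd5 and mt-Nd6 share 14 on opposite strands, mt-Nd4l and mt-Nd4 share 7, and mt-Atp6 and mt-Co3 share 1. The reading frames of mt-Atp8 and mt-Atp6 are shown because their log2 fold changes were the largest of the 13, and because a read over the shared stretch cannot be told apart between them. The first line is the whole of mt-Atp8 (chrM:7766-7969, plus strand), the next the first 120 bases of mt-Atp6 (chrM:7927-8046, plus strand) and the last the final 60 bases of mt-Nd4l (chrM:10114-10173, plus strand), all from GENCODE M21 on GRCm38. Capitals mark the bases shared with the neighbour, mt-Nd4 in the case of mt-Nd4l.
mt-Atp8: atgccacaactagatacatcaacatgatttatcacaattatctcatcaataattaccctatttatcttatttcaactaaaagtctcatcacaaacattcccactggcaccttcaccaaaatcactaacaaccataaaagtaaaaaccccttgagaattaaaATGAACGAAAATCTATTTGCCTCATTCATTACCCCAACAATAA
mt-Atp6: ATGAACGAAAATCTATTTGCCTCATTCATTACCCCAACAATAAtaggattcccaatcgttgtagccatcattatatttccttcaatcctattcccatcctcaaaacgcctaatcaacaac
mt-Nd4l: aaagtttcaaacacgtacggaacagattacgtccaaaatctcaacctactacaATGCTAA

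The genes also differ at their ends, which are shown because the libraries were made by capture of poly(A) tails. In mt-Co3, mt-Nd4 and mt-Cytb the annotated gene ends in a single T after its last whole codon, and in such mitochondrial genes the tail itself is known to complete the stop codon. The other 10 genes end in a whole stop codon. The lines give the last 30 bases of these genes (chrM:9361-9390, chrM:11515-11544 and chrM:15259-15288, plus strand) and, for comparison, of mt-Nd1 (chrM:3678-3707, plus strand) and mt-Nd6 (chrM:13552-13581, minus strand). Capitals mark the stop codon or its first letter.
mt-Co3 end: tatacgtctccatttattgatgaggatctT
mt-Nd4 end: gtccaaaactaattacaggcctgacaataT
mt-Cytb end: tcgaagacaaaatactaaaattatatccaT
mt-Nd1 end: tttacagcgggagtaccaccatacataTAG
mt-Nd6 end: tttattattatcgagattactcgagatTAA

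Mitochondrial messenger RNAs took a mean of 14.5% ± 1.41 of the counts in SAKI mice and 9.97% ± 3.41 in WT mice (SD, n = 3 each), and the groups overlapped because WT 2, at 13.8%, lay above SAKI 3, at 13.1%. The other libraries were at 7.31% in WT 1, 8.78% in WT 3, 15.9% in SAKI 1 and 14.7% in SAKI 2. The difference of 4.57 percentage points gave p = 0.2 in a two-sided exact permutation test, in which 3 mice against 3 cannot go below 0.1. Counting error was far smaller than the spread between mice, since the Wilson 95% interval of each share reached at most 0.0181 percentage points to either side. Without WT 2 the difference was 6.50 percentage points.

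Each of the 4 complexes had a higher mean share in SAKI mice, and in the share of counts the groups were apart for complex V alone. Complex V took 0.817%, 1.82% and 0.994% of the counts in WT 1 to 3 and 2.27%, 2.11% and 1.88% in SAKI 1 to 3, so that every SAKI mouse lay above every WT mouse. Its difference of 0.875 percentage points gave p = 0.1, the smallest that the exact permutation test allows, and an adjusted p of 0.2 over the 4 complexes. In summed TMM-normalized CPM, an alternative chosen after seeing the data, WT 2 (18717 CPM) lay above SAKI 3 (18213 CPM) for complex V too, and the exact permutation test gave p = 0.2. Complex IV took the largest part of the counts, 3.56%, 6.80% and 4.20% in WT mice and 7.81%, 7.01% and 6.38% in SAKI mice. Complex I followed with 2.17%, 3.74% and 2.66% against 4.10%, 3.99% and 3.37%. Complex III, read from mt-Cytb alone, was at 0.774%, 1.46% and 0.934% against 1.68%, 1.61% and 1.44%. In complexes I, III and IV WT 2 lay above SAKI 3, and the exact permutation test gave p = 0.2 for each.

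**Figure D1:**
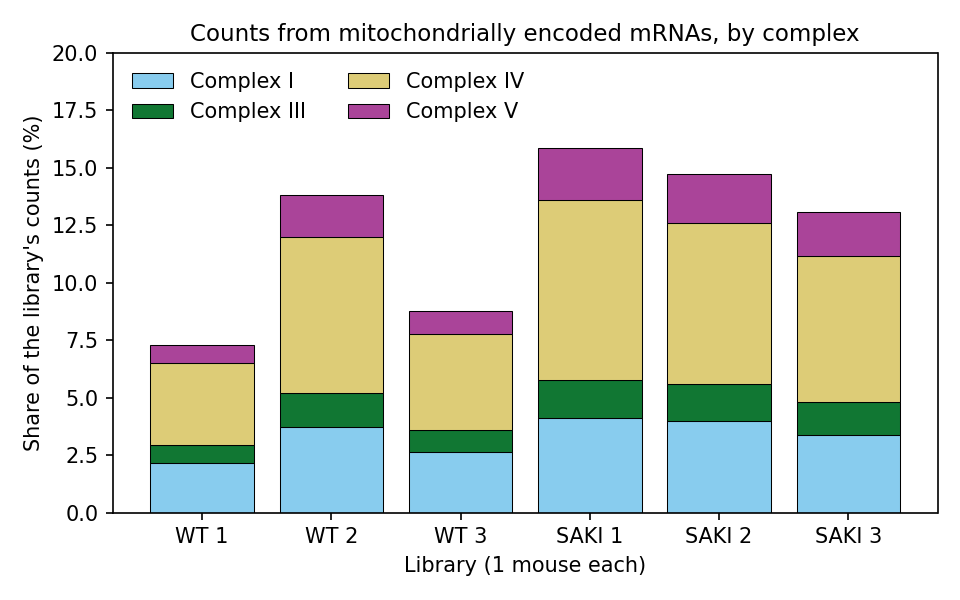
Share of each library's counts (%, vertical axis) that came from mitochondrially encoded messenger RNAs, stacked by complex, for 3 WT and 3 SAKI mice (1 bar per mouse). WT 1 and WT 3 stand at 7.31% and 8.78%, and WT 2, at 13.8%, stands among the SAKI libraries at 13.1% to 15.9%.

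The libraries differed in other tissue components along with this share. Summed CPM of 8 fibroblast and progenitor markers was 4295, 9251 and 3121 in WT 1 to 3 and 8782, 8531 and 9638 in SAKI 1 to 3, and that of 8 macrophage markers was 1143, 2172 and 932 against 2239, 2391 and 2686. Of these markers, 6 of 8 and 8 of 8 had a log2 fold change above 0, against 49.6% of all genes tested. edgeR called 0 of them, where it called 0.0325% of all genes tested. WT 2 thus lay near the SAKI libraries in both lists, as it did in the mitochondrial share. This did not hold for every list. In mature adipocyte, T cell and endothelium markers WT 2 was the WT library furthest from the SAKI libraries, at 25974, 165 and 1219 CPM. The groups were apart in the macrophage sum, where WT 2 lay just below every SAKI library, and overlapped in the fibroblast and progenitor sum. The 10 markers of mature adipocytes summed to between 18953 and 25974 CPM in WT mice and between 17118 and 19415 in SAKI mice, with 0 of 10 above 0. Brown and beige markers, 8 genes with Ucp1 among them, summed to between 148 and 600 CPM in WT mice and between 300 and 376 CPM in SAKI mice. Skeletal muscle, a tissue rich in mitochondria, ranged from 547 to 5967 CPM over its 10 markers in WT mice, with WT 1 highest and its mitochondrial share lowest, and from 420 to 2939 in SAKI mice. Of 6 further lists, summed CPM was apart between the groups for T cells (165 to 261 in WT mice, 324 to 388 in SAKI mice), red cells (181 to 442 against 89.1 to 92.7), immediate early genes (264 to 520 against 166 to 213) and endothelium (1197 to 1219 against 1085 to 1178), and overlapped for B cells and epithelium. Single genes, another measure than these sums, did not overlap in CPM in 25.4% of all genes tested. A log2 fold change above 0 was found in 3 of 8 endothelium, 3 of 10 skeletal muscle and 3 of the 7 brown and beige markers tested. It was found in 8 of 8 for T cells and for B cells, 0 of 5 for red cells, 0 of 11 for immediate early genes and 0 of 2 tested for epithelium. No marker of the 11 lists was at 0 in every library. The part of these components in the mitochondrial share was not tested, and in bulk tissue fewer cells of a type and less RNA per cell cannot be told apart.

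All 13 genes had a log2 fold change above 0 in SAKI mice, from 0.15 to 0.95 with a median of 0.51, against a median near 0 and 49.6% above 0 over all genes tested. None of the 13 passed edgeR's quasi-likelihood test (lowest adjusted p = 0.279), where 0.0325% of the genes tested passed, and 0 of 13 had an unadjusted p under 0.05, against 18.4% of the genes tested. At an unadjusted p under 0.05 the count was 4 of 13 with DESeq2, against 18.2% of all genes, and 3 of 13 with limma-voom, against 18.4%, and 0 passed after adjustment with either, while DESeq2 called 5.13% of all genes it tested. In TMM-normalized CPM the groups overlapped for every one of the 13, against 25.4% of all genes tested whose groups did not overlap.

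The result turned on WT 2, the WT library of highest mitochondrial share. It is singled out on these values, and leaving it out raises the difference and narrows the spread of the WT mice. The adjusted p values without it are therefore no separate test. Without that library 9 of the 13 genes were higher in SAKI mice at an adjusted p under 0.05, against 7.41% of the 15693 genes then tested that were called higher, and the median log2 fold change was 0.81. The 4 that did not pass were mt-Nd1, mt-Nd2, mt-Nd5 and mt-Nd6, with an adjusted p of 0.261, 0.0645, 0.0983 and 0.0983 from edgeR. Without WT 1, the library of lowest mitochondrial share, the median was 0.30 and none passed, and among the complex I genes mt-Nd5 stood at 0.11 and mt-Nd6 at 0.10, against 0.29 and 0.28 with all libraries.

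The complex V genes had the largest log2 fold changes. mt-Atp8, which encodes a small membrane subunit of ATP synthase, was at 1579, 4941 and 2116 CPM in WT 1 to 3 and at 6114, 5725 and 4874 CPM in SAKI 1 to 3. WT 2 lay just above SAKI 3, and WT 1 and WT 3 lay well below the rest. Its log2 fold change was 0.95 (edgeR, SE 0.41, adjusted p = 0.279), and 1.59 without WT 2 (edgeR, SE 0.19, adjusted p = 0.00694). mt-Atp6, which encodes the subunit that carries protons to the rotor, was at 6207, 13776 and 8285 CPM in WT mice and 16905, 15248 and 13339 CPM in SAKI mice. Its log2 fold change was 0.69 (edgeR, SE 0.31, adjusted p = 0.293), with WT 2 above SAKI 3 again. Without WT 2 it was 1.07 (edgeR, adjusted p = 0.0203).

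The complex IV genes lay close together. mt-Co1, which encodes the subunit where oxygen is reduced, was at 23265, 47735 and 29612 CPM in WT mice and 54542, 47048 and 41361 CPM in SAKI mice. WT 2 exceeded SAKI 2 and SAKI 3, and the log2 fold change was 0.51 (edgeR, adjusted p = 0.425). mt-Co2, which encodes the subunit that receives electrons from cytochrome c, was at 5761, 11479 and 7789 CPM against 13022, 11786 and 10663 CPM, or 0.50 on the log2 scale (edgeR, adjusted p = 0.365). mt-Co3, for the remaining core subunit, was at 4901, 10783 and 6560 CPM against 11761, 10800 and 9925 CPM, a log2 fold change of 0.55 (edgeR, adjusted p = 0.367). For these 3 genes the log2 fold change was 0.81 to 0.92 without WT 2, and all 3 were then called. mt-Cytb, which encodes cytochrome b, was at 7377, 15039 and 9772 CPM against 17077, 16015 and 13969 CPM. With a log2 fold change of 0.55 (edgeR, adjusted p = 0.347) it resembled the complex IV genes, and WT 2 again exceeded SAKI 3.

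The 7 complex I genes spread more widely, from 0.15 to 0.63 on the log2 scale. mt-Nd1, the first gene after the ribosomal RNAs, had the smallest log2 fold change of all 13, with 4295, 7168 and 5959 CPM in WT mice and 7001, 6729 and 5651 CPM in SAKI mice. WT 2 was the highest of all 6 libraries, and the log2 fold change was 0.15 (edgeR, adjusted p = 0.735) and turned to -0.02 without WT 1. mt-Nd4l, which shares its end with mt-Nd4, had the largest of the 7, with 1691, 3597 and 2066 CPM against 4238, 3866 and 3276 CPM, a log2 fold change of 0.63 (edgeR, adjusted p = 0.302). mt-Nd4, next to it, was at 6710, 12381 and 8887 CPM against 14471, 13661 and 11254 CPM, a log2 fold change of 0.49. mt-Nd2 was at 3073, 6531 and 4626 CPM against 6754, 6601 and 5629 CPM, a log2 fold change of 0.42. mt-Nd3, the lowest of the genes of its strand in counts, was at 508, 1003 and 719 CPM against 1099, 1160 and 925 CPM, a log2 fold change of 0.51. In each of these 5 genes WT 2 lay above SAKI 3, and in all but mt-Nd1 both WT 1 and WT 3 lay below every SAKI mouse.

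The remaining 2 complex I genes are those that overlap on opposite strands. mt-Nd5 was at 4313, 7750 and 5446 CPM in WT mice and 8017, 7493 and 5884 CPM in SAKI mice, a difference of 0.29 on the log2 scale (edgeR, adjusted p = 0.563). mt-Nd6 was at 56.9, 95.6 and 77.4 CPM against 101, 95.7 and 82.1 CPM, a log2 fold change of 0.28 (edgeR, adjusted p = 0.466). Whether the counting used strand is not given in the sources used here, and without strand, reads of mt-Nd6 and reads of the opposite strand across it cannot be told apart.

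**Figure D2:**
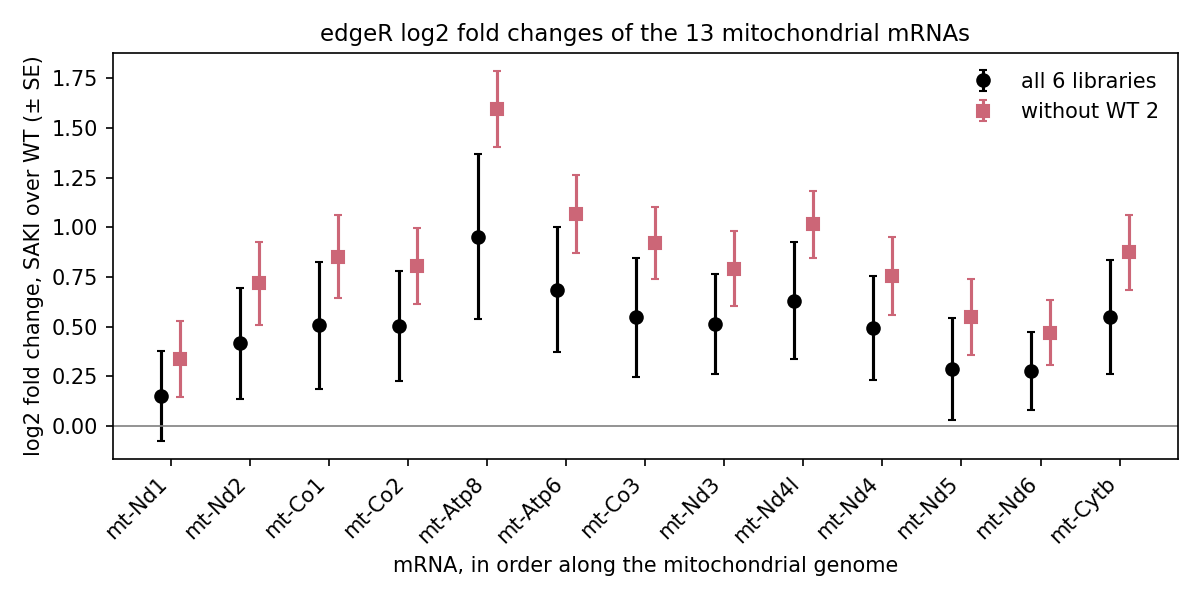
log2 fold change of SAKI over WT (vertical axis, bars ± standard error computed from edgeR's F statistic) for the 13 genes in their order on the mitochondrial genome, with all 6 libraries (black circles) and without WT 2 (red squares). mt-Atp8 is highest in both, at 0.95 and 1.59, and mt-Nd1 lowest, at 0.15 and 0.34.

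Levels can be compared between genes only per length, and for this the FPKM values (counts scaled to gene length and library total) were used. mt-Co1 was highest in every library, at a mean of 30993 FPKM ± 3602 in SAKI mice and 21373 ± 7584 in WT mice (SD, n = 3 each), and by raw counts it ranked 1 or 2 among all genes in each library. mt-Atp8 came next in SAKI mice, at 29499, 28261 and 24603 FPKM, followed by mt-Atp6 at 24432, 22549 and 20169 FPKM. In WT mice mt-Atp8 was at 8120, 23525 and 9912 FPKM and mt-Atp6 at 9559, 19648 and 11627 FPKM, so the order of these 2 genes differed: mt-Atp8 was the higher in WT 2 and the 3 SAKI mice, and the lower in WT 1 and WT 3. mt-Co3 and mt-Cytb, at 13891 ± 865 and 13788 ± 1093 FPKM in SAKI mice (SD, n = 3 each), did not differ beyond their spread, and mt-Co3 was the higher in only 3 of 6 libraries. The other neighbours in the order (mt-Co2 after mt-Atp6, then after mt-Cytb mt-Nd4l, mt-Nd4, mt-Nd1, mt-Nd2, mt-Nd5, mt-Nd3 and mt-Nd6) kept their order in all 6 libraries. These FPKM values leave out counts assigned to the nuclear copies described below. mt-Co3 and mt-Nd4l have such copies and mt-Cytb has no annotated one. Their order relative to mt-Cytb therefore depends on how reads matching both gene and copy were assigned. The order with the copies added was not tested. mt-Nd6 was far below the rest, at 191, 186 and 163 FPKM in SAKI mice and 115, 179 and 142 FPKM in WT mice, with mt-Nd3 above it at 3068 ± 312 and 2101 ± 643 FPKM (SD, n = 3 each). The libraries were made from poly(A)-captured RNA, so levels compared between genes also depend on how well each messenger RNA is captured. That was not measured here, and the gap of mt-Nd6 is one in captured RNA. Reads that cross the ends of mt-Atp8, a gene of 204 bases, can be counted in several ways, and the rule used is not given in the sources used here.

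Each gene was also expressed as a share of the mitochondrial counts, which removes the total. In this make-up the groups differed without overlap in 6 of 13 genes (46.2% of the 13). That percentage restates the count and is no background rate, since the share was computed for the 13 genes alone. In CPM, another measure, the groups did not overlap in 25.4% of all genes tested. WT 2 lay between the other WT mice and the SAKI mice in all 6 of the genes that differed in share. mt-Atp8 made up 2.26%, 3.47% and 2.30% of the mitochondrial counts in WT 1 to 3 and 3.80%, 3.91% and 3.84% in SAKI 1 to 3. mt-Atp6 made up 8.90%, 9.68% and 9.01% against 10.5%, 10.4% and 10.5%, and mt-Nd4l 2.43%, 2.53% and 2.25% against 2.63%, 2.64% and 2.58%. These 3 shares of counts were higher in every SAKI mouse, though that of mt-Nd4l overlapped when FPKM replaced counts (exact permutation p = 0.3), and the SAKI mice lay close together, at 3.85% ± 0.0603 for mt-Atp8 against 2.68% ± 0.687 in WT mice (SD, n = 3 each).

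The other 3 genes had a smaller share in every SAKI mouse. mt-Nd1 made up 6.16%, 5.04% and 6.48% in WT mice and 4.35%, 4.60% and 4.46% in SAKI mice. mt-Nd5 made up 6.19%, 5.45% and 5.93% against 4.98%, 5.12% and 4.64%, and mt-Nd6 0.0817%, 0.0672% and 0.0842% against 0.0626%, 0.0655% and 0.0647%. Shares of one total are not independent of one another, so a larger share of some genes makes that of others smaller. For each of the 6 genes the exact permutation test gave p = 0.1, its smallest value, and an adjusted p of 0.217 over the 13 genes, so none passed a threshold of 0.05.

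The remaining 7 genes overlapped between the groups. mt-Co1 made up 33.0% ± 0.721 in WT mice and 32.9% ± 0.872 in SAKI mice, and mt-Cytb 10.6% ± 0.0335 against 10.9% ± 0.223 (SD, n = 3 each). By complex, complex V took 11.2%, 13.2% and 11.3% of the mitochondrial counts in WT mice and 14.3%, 14.3% and 14.4% in SAKI mice (exact permutation p = 0.1, adjusted p = 0.267 over 4 complexes), complex IV stood at 48.6% ± 0.689 against 48.6% ± 0.844 (SD, n = 3 each), and the groups overlapped for complexes I, III and IV. mt-Nd6, the one gene of the other strand, had a log2 ratio to the sum of the other 12 of -10.34 ± 0.18 in WT mice and -10.60 ± 0.03 in SAKI mice (SD, n = 3 each; exact permutation p = 0.1). That ratio too is one in poly(A)-captured RNA. The ratio of mt-Atp8 to mt-Atp6, picked out after its values were seen and given with no test, was -1.97, -1.48 and -1.97 on the log2 scale in WT 1 to 3 and -1.47, -1.41 and -1.45 in SAKI 1 to 3. Across the 13 genes the log2 fold change had a Spearman correlation of -0.49 with gene length, 0.11 with GC content and 0.09 with position along the genome. It was 0.31 with the share of 50-base windows also found in other annotated transcripts. The correlation with length was -0.44 without WT 2, and -0.37 with counts of the nuclear copies described below added. These describe 13 genes read in the same 6 libraries, which are not independent replicates.

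**Figure D3:**
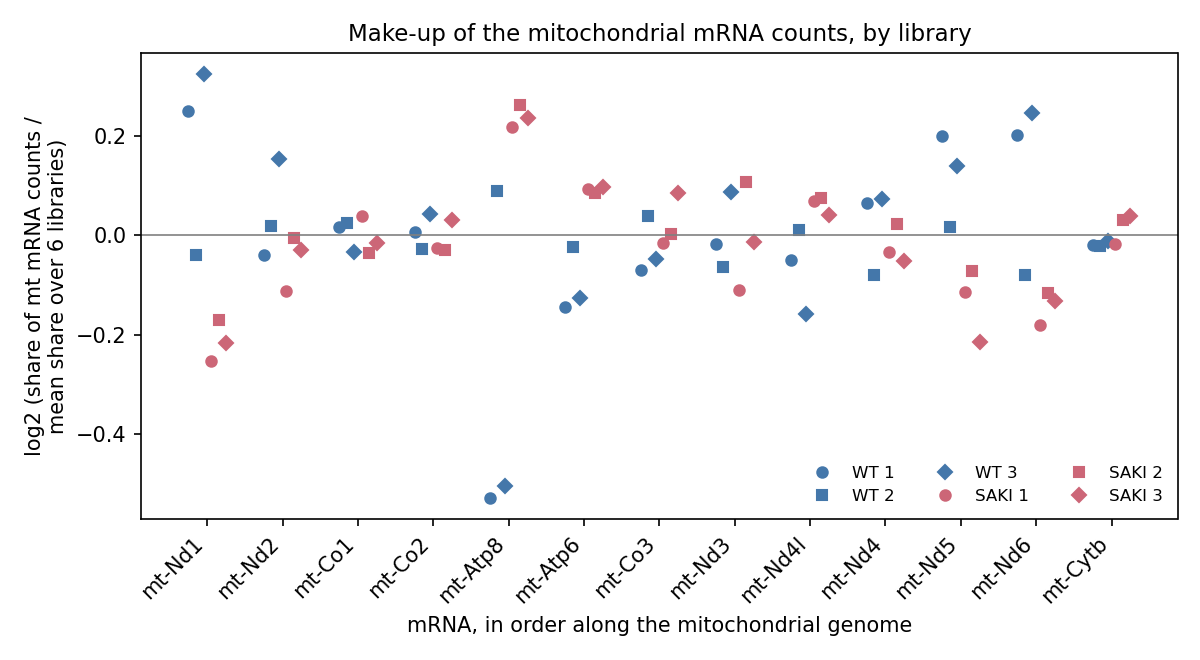
Share of the mitochondrial counts taken by each gene, as log2 of its ratio to the mean share over the 6 libraries (vertical axis), for genes in their order on the genome, with WT mice in blue and SAKI mice in red (1 point per mouse). On this relative scale mt-Atp8 ranges most widely, from 2.26% to 3.91% of the mitochondrial counts, and WT 2 (blue square) lies between the other WT mice and the SAKI mice for mt-Nd1, mt-Atp8, mt-Atp6, mt-Nd4l, mt-Nd5 and mt-Nd6.

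Mitochondrial sequence has been inserted into nuclear chromosomes in the course of evolution, and reads from such copies can be confused with those of the mitochondrial genes. A search of the annotated transcripts found 11 nuclear pseudogenes in the tables that match 9 of the 13 genes at 95% identity or more. On chromosome 1 of GRCm38, 7 of them stand in a row on the minus strand between 24611535 and 24616197. Gm28661 is identical to mt-Co2 over 681 bases, Gm10925 to mt-Atp6 over 678, Gm28437 to mt-Co3 over 783, Gm10222 to mt-Nd4l over 294 and Gm28439 to mt-Nd4 over 876. Gm28438 differs from mt-Nd3 by 1 base (T3C, counted from the first base of the gene), and Gm29216 differs from the end of mt-Co1 by 1 base (A1066T). Reads from within these stretches cannot be told apart by sequence. mt-Nd1, mt-Atp8, mt-Nd6 and mt-Cytb share no window of 50 bases with any other annotated transcript, and mt-Nd2 and mt-Nd5 share 8.2% and 7.6% of theirs. The copies of mt-Co2 and mt-Atp6 are 233 bases apart on chromosome 1, as are the same ends on the mitochondrial genome, where mt-Atp8 begins in that interval. No genome sequence was used here, so that interval was not read.

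Counts assigned to the 11 copies summed to between 0.622% and 0.814% of each library, with no order by group (exact permutation p = 0.5). Gm10925 was at 1467, 1667 and 1987 CPM in WT 1 to 3 and at 2138, 1863 and 1640 CPM in SAKI 1 to 3, a log2 fold change of 0.14 (edgeR, adjusted p = 0.691) against 0.69 for mt-Atp6. Gm28661 was at 1190, 1203 and 1616 CPM against 1401, 1231 and 1152 CPM, a log2 fold change of -0.08 (edgeR, adjusted p = 0.814). As a share of copy and mitochondrial counts together, Gm10925 took 19.1%, 10.8% and 19.3% in WT 1 to 3 and 11.2%, 10.9% and 10.9% in SAKI 1 to 3. The same order of libraries held for the other 6 copies of the row, with WT 1 and WT 3 above all 4 other libraries, and in Gm28661 the shares were 17.1%, 9.48% and 17.2% against 9.71%, 9.46% and 9.75%.

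When the counts of the copies were added to the genes they match, an alternative chosen after seeing the data, the same 6 genes stood apart between the groups in their share of the mitochondrial counts, and no gene passed edgeR's test. Without WT 2 the count of genes called higher was then 6 in place of 9, against 7.39% of all genes. mt-Co2, mt-Nd3 and mt-Nd4 missed the threshold narrowly, at an adjusted p of 0.0562, 0.0579 and 0.0588 with edgeR and a log2 fold change of 0.68, 0.66 and 0.69, against 0.81, 0.79 and 0.75 without the copies. mt-Atp8 and mt-Cytb, which have no annotated copy, still passed, as did mt-Co1, mt-Atp6, mt-Co3 and mt-Nd4l. Among the 6 genes that share fewer than 10% of their 50-base windows, taken as a set of their own after seeing the data, mt-Atp8 made up 7.63%, 11.9% and 7.56% in WT 1 to 3 and 13.6%, 13.4% and 13.5% in SAKI 1 to 3. The windows were searched in annotated transcripts alone. On the mitochondrial genome 161 bases of mt-Atp8 lie in the interval that was not read on chromosome 1, and whether it has a copy there was not tested. In the same set mt-Nd1 made up 20.8%, 17.3% and 21.3% against 15.5%, 15.8% and 15.7%, and the groups were apart for both genes. In all, 2 of these 6 genes were apart with a higher share in SAKI mice, mt-Atp8 and mt-Cytb (35.6% ± 0.659 in WT mice and 38.0% ± 0.598 in SAKI mice, SD, n = 3 each), and 3 with a lower share, mt-Nd1, mt-Nd5 and mt-Nd6, while mt-Nd2 overlapped. For each gene that was apart the exact permutation test gave p = 0.1, its smallest value, and shares within the set are not independent. Among all 13 genes the share of mt-Cytb overlapped (exact permutation p = 0.2), and its difference was -0.258 percentage points with FPKM. No rate over all genes exists for these shares. In CPM, another measure, the groups did not overlap in 25.4% of all genes tested.

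**Figure D4:**
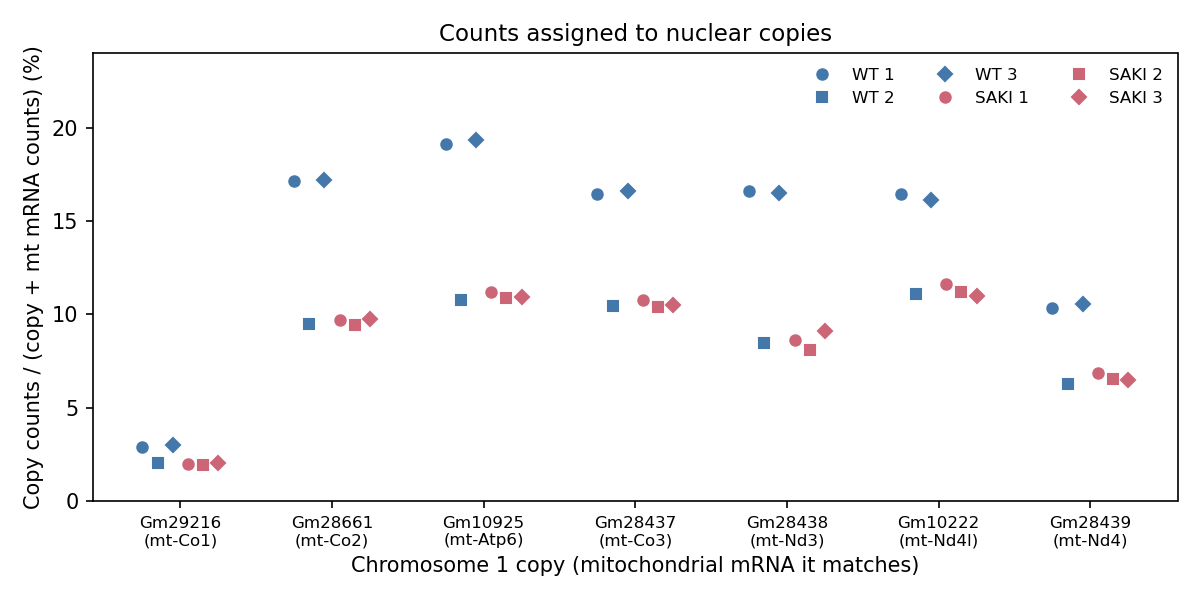
Counts assigned to each of 7 pseudogenes on chromosome 1 as a percentage of the counts of the copy and of the mitochondrial gene it matches (vertical axis), 1 point per library, with WT mice in blue and SAKI mice in red. WT 1 and WT 3 lie highest for every copy, for Gm10925 at 19.1% and 19.3% against 10.8% to 11.2% in the other libraries.

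Mitochondrial genes depend on nuclear genes that copy, transcribe, process and translate them, and on nuclear partner subunits. Of 200 nuclear genes tested in 11 such lists, 0 passed edgeR's test (0.0325% of all genes tested passed), and at an unadjusted p under 0.05 there were 1 higher and 27 lower, against 18.4% of all genes tested in either direction. DESeq2 called 1 higher and 3 lower, against 5.13% of all genes. Of 80 nuclear subunits of complexes I to V, 59 lay below 0 on the log2 scale and 21 above it, on the other side of 0 from the 13 mitochondrial genes, where 50.4% of all genes tested were below 0. Without WT 2, 5 of the 200 were called higher and 25 lower, against 7.41% and 9.14% of all genes tested.

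Among genes of mitochondrial DNA maintenance and transcription, 7 of 18 lay above 0, and the median was -0.09 on the log2 scale. Primpol, a primase-polymerase that restarts replication, was at 13.8, 18.4 and 13.9 CPM in WT 1 to 3 and at 23.4, 25.0 and 24.6 CPM in SAKI 1 to 3. Its groups did not overlap, and the log2 fold change of 0.66 (edgeR, adjusted p = 0.163) missed the threshold. Mgme1, a nuclease that trims mitochondrial DNA ends, had a log2 fold change of -0.57, Polg, the mitochondrial DNA polymerase, one of -0.32 and Rnaseh1, which removes RNA paired to DNA, one of -0.42 (edgeR, adjusted p = 0.241, 0.272 and 0.274). In RNA processing, modification and turnover, 13 of 36 lay above 0 (median -0.06, and 0.03 without WT 3). Rexo2, which degrades very short RNAs, was at 64.2 ± 10.1 CPM in WT mice and 47.2 ± 1.44 CPM in SAKI mice (SD, n = 3 each), a difference of -0.44 on the log2 scale (edgeR, adjusted p = 0.197). Nsun4, a methyltransferase of mitochondrial ribosomal RNA, stood at -0.47, Tbrg4, an RNA-binding protein of the FASTK family, at -0.31 and Mettl17, a factor of the mitochondrial ribosome, at 0.24.

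Genes of translation lay mostly lower. Of 22 genes that charge mitochondrial transfer RNAs, 18 were below 0 (median -0.18), led by Gars, which serves cytosol and mitochondria, at 110 ± 23.3 CPM in WT mice and 76.9 ± 3.57 CPM in SAKI mice (SD, n = 3 each; edgeR log2 fold change -0.51, adjusted p = 0.205). Kars, shared by both compartments as well, stood at -0.24, Gatc at -0.28 and Mars2 at 0.29. Of 12 translation factors 8 were below 0 (median -0.08, and 0.04 without WT 3), with Tsfm, an elongation factor, at 18.9 ± 2.48 CPM against 12.8 ± 1.18 CPM (SD, n = 3 each; edgeR log2 fold change -0.56, adjusted p = 0.181). Mrrf, Gfm1 and Gfm2, which act on ribosomes during elongation and recycling, stood at -0.21, -0.25 and -0.15. Of 12 regulators of mitochondrial biogenesis 7 were above 0 (median 0.09, but -0.06 without WT 1 and -0.03 without SAKI 1). Among them Esrra, a nuclear receptor of respiratory genes, stood at -0.41 and the coactivator Pprc1 at -0.44, while Nfe2l2, a regulator of the response to oxidative stress, stood at 0.21 and Sirt3, a mitochondrial deacetylase, at 0.32 (edgeR, adjusted p = 0.228, 0.369, 0.458 and 0.491).

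General markers of mitochondrial content were the list furthest below 0: 20 of 20 had a log2 fold change below 0, against 50.4% of all genes tested. Their median was -0.34, and -0.44 without WT 2. These genes were read in the same 6 libraries and are not independent replicates. Timm23, a channel of the inner membrane import machinery, was at 24.3, 19.0 and 29.5 CPM in WT 1 to 3 and at 15.4, 14.9 and 15.4 CPM in SAKI 1 to 3, a log2 fold change of -0.67 (edgeR, adjusted p = 0.177). Its groups did not overlap, and WT 2 was the nearest of the WT mice to the SAKI mice. The import genes Tomm40 and Tomm20 stood at -0.54 and -0.31 and the phosphate carrier Slc25a3 at -0.49 (edgeR, adjusted p = 0.224, 0.224 and 0.236). Markers of mature adipocytes lay lower along with this list, with the sums given above, and their part in it was not tested.

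In each complex with mitochondrially encoded subunits, the median log2 fold change of the nuclear subunits lay below 0 with all libraries. These medians moved with single libraries: without WT 3 they were -0.07, 0.02, -0.02 and -0.03 in complexes I, III, IV and V, and without WT 1 they were -0.29, -0.23, -0.21 and -0.22. In complex I, 32 of 36 nuclear subunits were below 0 (median -0.19), and Ndufc1, an accessory subunit, was at 27.0, 15.9 and 34.0 CPM in WT 1 to 3 and at 12.1, 12.0 and 12.2 CPM in SAKI 1 to 3 (edgeR log2 fold change -1.09, adjusted p = 0.17). Ndufa13, Ndufb2 and Ndufa2, also accessory subunits, stood at -0.39, -0.54 and -0.50. In complex V, 10 of 16 were below 0 (median -0.11). Atp5g3, which encodes a protein of the rotor ring, was at 229, 120 and 289 CPM in WT 1 to 3 and at 111, 112 and 115 CPM in SAKI 1 to 3, a log2 fold change of -0.92 (edgeR, adjusted p = 0.208), against 0.95 and 0.69 for mt-Atp8 and mt-Atp6. Atp5l, Atp5e and Atp5j stood at -0.91, -0.44 and -0.30.

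The other complexes had medians close to that of complex V. In complex IV, 9 of 15 were below 0 (median -0.11), with Cox4i2 at -0.58, Cox7a2 at -0.26, Cox6a1 at -0.26 and Cox5a at -0.23. In complex III, 5 of 9 were below 0 (median -0.11), with Uqcrfs1, the iron-sulfur protein, at -0.36, Cyc1, cytochrome c1, at -0.30, Uqcrb at 0.17 and Uqcrc1 at -0.15. Complex II, which has no mitochondrially encoded subunit, had 3 of 4 below 0 (median -0.10), with Sdhb, Sdhc, Sdha and Sdhd at -0.18, -0.13, -0.07 and 0.02. The adjusted p of these 12 genes ranged from 0.27 to 0.969 with edgeR.

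**Figure D5:**
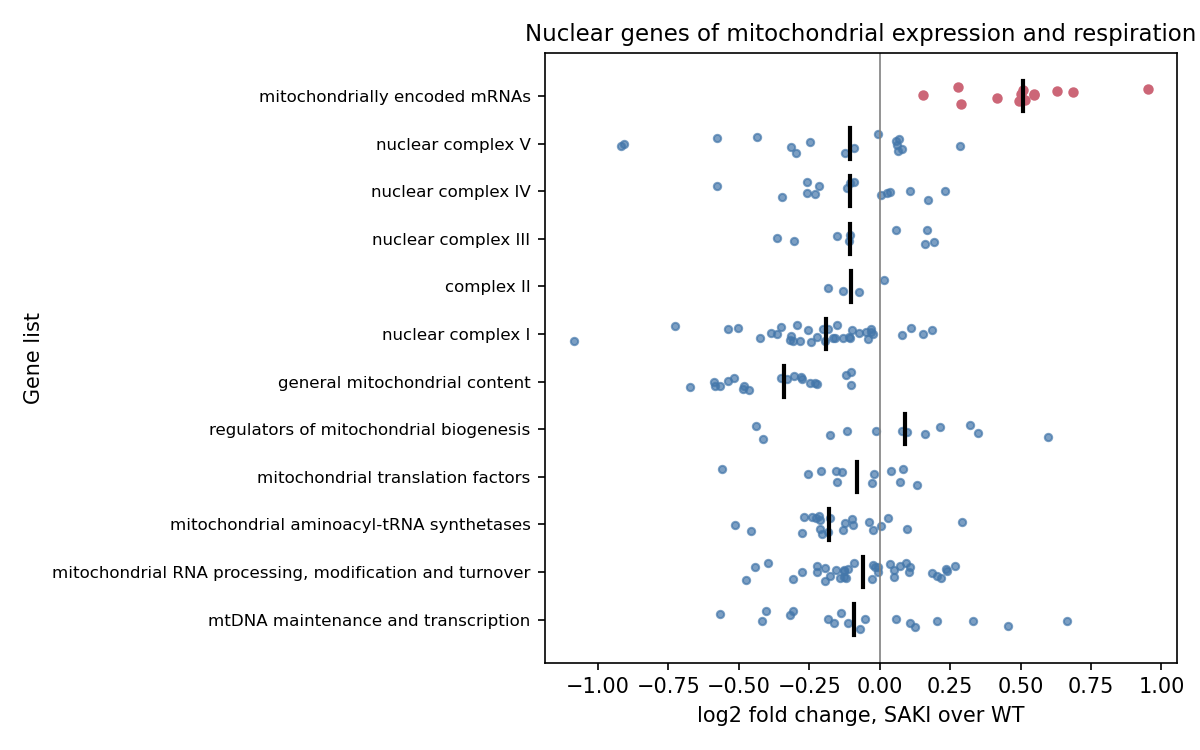
log2 fold change of SAKI over WT (horizontal axis) of each gene in 11 nuclear lists (blue) and of the 13 mitochondrially encoded genes (red), 1 point per gene with a black bar at the median of each list. The 13 red points all lie above 0 with a median of 0.51, and the medians of the nuclear lists lie between -0.34 and 0.09.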

How the data were processed

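IngWAT of 3 WT and 3 SAKI mice was profiled by RNA-seq, and libraries were assigned to genotype and mouse by the sample labels. The authors deposited raw counts per gene for each library, not normalized, and a table of FPKM values that equal those counts after division by gene length and by library total (1 length per gene within 0.1% in 17026 of 17026 genes with counts in every library). Per the submitters' processing notes, StringTie 1.3.0, Bowtie2 2.2.6 and HISAT2 2.0.4 were used, with GRCm38 as the build and no role stated for each. The sources used here do not give the counting tool, the strand setting or the treatment of reads with several matches, and the last could shift counts between mitochondrial genes and their nuclear copies. Names of 27 genes that had become dates were restored from gene IDs.

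Counts were fitted over all genes with edgeR (4.0.16, under R 4.3.3; filterByExpr at its default minimum count, 10, and minimum total, 15, then TMM, genotype alone, quasi-likelihood test, Benjamini-Hochberg adjusted p under 0.05). CPM are TMM-normalized. Shares of counts were compared by two-sided exact permutation tests over the mice (scipy 1.17.1). Copies were found with BLAST 2.17.0 among GENCODE M21 transcripts (at least 95% identity over 100 bases). Library totals ranged from 15354161 to 18787036 counts, and intervals cover counting error only. The alternatives were other scalings (RLE, upper-quartile, nuclear genes alone), DESeq2 1.42.0, limma-voom 3.58.1, other filters, FPKM with a pseudocount of 1 or 0.1, the replicate number as a block and each library left out. The genes, the lists, the alternatives and the rule for named genes (all mitochondrial genes, up to 4 of smallest p in each nuclear list, and Slc35d3) were chosen with earlier results of these data known.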

Additional observations from a re-analysis of the deposited data

How the results depend on the processing

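The 13 log2 fold changes stayed above 0 in every alternative except that of mt-Nd1 without WT 1, and their median ranged from 0.30 to 0.81 when each library was left out and from 0.46 to 0.59 with the other scalings, tools and filters and with the nuclear copies added (0.72 with the copies added and WT 2 left out). The count of mitochondrial genes called higher was 0 to 9 with a library left out, 9 without WT 2 alone, and 6 without WT 2 when the nuclear copies were added, an alternative chosen after seeing the data. Over all genes tested, 7.41% were called higher without WT 2, and 7.39% with the copies added too. The fit without WT 2 tests fewer samples, and why that library stands apart was not tested. Of the 200 nuclear genes tested, 1 was called higher and 3 lower with DESeq2, against 5.13% of all genes called. With a library left out the counts were 0 to 5 higher and 0 to 25 lower. The upper ends were reached without WT 2, against 7.41% of all genes tested called higher and 9.14% lower. Medians of 4 nuclear lists changed sign without 1 library, as given beside them. Others kept their sign and moved by over 1.5 times, such as mitochondrial DNA maintenance and transcription (-0.18 without WT 1, -0.04 without SAKI 3), the genes that charge transfer RNAs (-0.10 without WT 3) and complex II (-0.23 without WT 1, -0.02 without WT 3). The log2 fold change of mt-Nd1 ranged from -0.024 (without WT 1) to 0.34 with a library left out. In the make-up of the mitochondrial counts, 5 in place of 3 shares were lower and 2 in place of 3 higher without overlap when FPKM replaced counts, since the values are then weighted by length, and the differences of mt-Co3 and mt-Cytb turned to -0.166 and -0.258 percentage points. The difference of mt-Co1 was 0.121 percentage points with the copies added. With a library left out it ranged from -0.65 to 0.191, that of mt-Co2 from -0.197 to 0.0183 and that of mt-Nd3 from -0.0327 to 0.0229. Shares by ribosomal and transfer RNA could not be computed, since the tables hold neither. Depth does not limit the mitochondrial shares, but 3 mice per group cannot give an exact permutation p under 0.1.

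Deviations of same-numbered mice correlated weakly, at 0.0363, 0.0423 and 0.0893, and each mouse correlated best with a mouse of another number. With 3 mice per group this check cannot show whether the replicate numbers pair the mice. With the replicate block the median log2 fold change was 0.56, 0 of 13 genes were called, and the share of counts gave p = 0.25 in an exact sign-flip test over 3 pairs, the smallest it allows.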
